A study of Danio rerio with 8 samples.

Results

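Zebrafish (Danio rerio) embryos injected with a morpholino against ddx3xb were compared with embryos injected with a control morpholino at 6 hours post fertilization (hpf), the onset of gastrulation. Morpholinos are antisense oligomers that bind an RNA and block its translation or splicing, and the ddx3xb protein is an RNA helicase of the DEAD-box type. Poly(A) RNA of whole embryos was sequenced from 2 libraries per group, and the authors deposited 1 RPKM value per gene for each group (a read count scaled to gene length and library size). Every difference below therefore sets 1 value against 1 value, with no replicate error and no p-value. Both groups carry an injected oligomer according to the sample titles, while the genotype label of the control group reads wild type. In 1 of the 2 knockdown libraries the genotype label reads ddx4xb but the title reads ddx3xb, and grouping went by title. The same 2 groups at 2 hpf served mainly to show which poly(A) RNAs were present early, taken here as supplied by the egg. Genes were taken into the comparison at 5 RPKM or more in either 6 hpf table, which kept 9861 of 33737 identifiers, 7783 of them with a gene symbol. Of the 9861 genes, 7835 reached 5 RPKM in both tables, 1189 only in knockdown and 837 only in control embryos. The highest value of a gene was 5.003 RPKM just inside this floor and 4.9998 RPKM just outside it, with 672 genes between 5 and 6 RPKM and 792 between 4 and 5 RPKM.

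An embryo at this age holds RNA from a pair of sources. The egg is loaded with maternal RNA that runs the first cell divisions and is then deadenylated and degraded, and the zygotic genome is switched on at the mid-blastula transition by factors that include Nanog, Pou5f3 and SoxB1 proteins. Gastrulation follows, when Nodal, BMP, Wnt and FGF signals set the germ layers and the body axes while an outer epithelium, the enveloping layer, and the yolk syncytial layer enclose the embryo and the yolk. DDX3 helicases are known to unwind structured RNA, with a role in translation initiation described in yeast and mammals.

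The RPKM sums were 473849 in knockdown and 461376 in control embryos, and the compared genes held 97.1% and 97.2% of them. Total read counts are not stated; from the steps between low values, 5 RPKM stood for a median of 212 reads in knockdown and 248 reads in control embryos over 280 weakly expressed genes, and for 39.6 and 45.7 reads at the 10th percentile. Counting alone would give an SD of 15.9% and 14.8% at that percentile, for a value of 5 RPKM. These genes were taken at under 0.3 RPKM in both tables, which leaves out short genes where 1 read weighs more. Values under 5 RPKM, frequent in 1 of the tables among genes past 2-fold, rest on fewer reads. The 2 libraries differed 1.03-fold in depth in 1 group and 1.18-fold in the other. The steps, read from ratios between the groups, do not show which group is which. Gastrula genes chosen as a stage check were split. Near level were tbx16 at 149 RPKM in knockdown and 163 RPKM in control embryos and the organizer gene GSC at 28.8 and 34.4 RPKM. Further below control were chrd at 41.2 RPKM in knockdown and 78.9 RPKM in control embryos, eve1 at 8.93 and 85.5 RPKM and TBXT at 0.179 and 6.72 RPKM. The planned marker ta was not found under the symbols ta or tbxta. Which fish copy of this T-box gene the symbol TBXT (ENSDARG00000039806) stands for was not checked. Whether the groups had reached the same stage was not tested. Of the few defining markers of other tissues, the highest was at 0.0894 RPKM in knockdown and 0.161 RPKM in control embryos for the follicle, 0.168 and 0.371 RPKM for erythroid cells, and 0.408 and 0.334 RPKM for muscle and neuron. Most members of the wider lists lay under the floor too, 12 of 14 for follicle and ovary, 9 of 10 for erythroid cells and 17 of 19 for muscle and neuron. The exceptions were the oocyte genes zp3c at 25.9 RPKM in knockdown and 8.88 RPKM in control embryos and GDF9 (both higher), LMO2 at 0.826 RPKM in knockdown and 5.24 RPKM in control embryos (lower), tubb5 at 5.91 RPKM in knockdown and 7.17 RPKM in control embryos, and STMN2 at 5.10 RPKM in knockdown and 1.22 RPKM in control embryos (higher). As a sign of library quality, the feature 5_8S_rRNA, a piece of ribosomal RNA that oligo(dT) beads should leave behind, had 277 RPKM in knockdown embryos, against 53.4 RPKM in control at 6 hpf and 812 RPKM in knockdown embryos, against 70.04 RPKM in control at 2 hpf, so it was higher in knockdown at both ages. Its part in the results was not tested.

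The targeted transcript was not lower. ddx3xb (ENSDARG00000005774) had 322 RPKM in knockdown embryos, against 141 RPKM in control, a log2 ratio of 1.18, or 0.999 and so just short of 2-fold once the tables are rescaled to a common median ratio, and its paralog ddx3xa (ENSDARG00000020573) had 115 RPKM in knockdown embryos, against 41.8 RPKM in control. Neither value reports on the protein, and a morpholino need not lower its target's RNA, so the labels are not checked by them.

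Ratios are log2 of (RPKM + 1) in knockdown over control, a scale that understates the change of low values. A gene is said to be higher, lower, risen or fallen where the ratio was at least 2-fold, and values alone are given otherwise. By this measure 1132 genes (11.5% of those compared) were higher and 871 (8.83%) were lower in knockdown embryos, while 7858 stayed within 2-fold. The few large differences lay on the lower side, with 46 genes (0.466%) at least 4-fold higher and 284 (2.88%) at least 4-fold lower. Past 8-fold, 1 gene was higher and 65 were lower. The higher genes were mostly modest in level, with medians of 17.8 RPKM in knockdown and 6.26 RPKM in control embryos, and the lower genes had medians of 4.27 and 18.4 RPKM. The median ratio of all genes was 0.21, so every list below is to be read beside that value. Each list count is likewise to be read beside the 11.5% higher and 8.83% lower of all genes. Rescaling by the median ratio (0.19 on the log2 scale, from genes reaching 5 RPKM in both tables) turned the split to 707 higher (7.17%) and 1101 lower (11.2%). Among the genes given with values here, that rescaling takes ddx3xb, the supplied CD82 copy, CPEB1, ZAR1, TDRD1, rbm7, snai2, EIF4G3, MAP3K7, NEIL1 and zp3f.2 out of the higher ones and puts bmp7a, chrd and HSP90AB1 among the lower ones.

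What the egg had supplied separated the lower genes most, and the higher genes less. The 1322 compared genes that lay under 1 RPKM in both 2 hpf tables had no more than traces of poly(A) RNA in those libraries. RNA with a tail too short for poly(A) enrichment would be missed there, which was not tested. Of the 1322 genes, 532 (40.2%) were lower and 89 (6.73%) higher in knockdown embryos at 6 hpf. Of the 7078 genes at 5 RPKM or more in both 2 hpf tables, 121 (1.71%) were lower and 944 (13.3%) higher, beside 8.83% and 11.5% of all genes. After rescaling, 591 near-absent genes were lower and 70 higher, and 225 supplied genes were lower and 571 higher. The median log2 ratio was -0.66 in the near-absent class (-0.82 after rescaling) and 0.34 in the supplied class (0.16 after rescaling). Lists below that are rich in near-absent genes are to be read beside that class. Large falls sat mostly with the near-absent genes: 243 of the 284 genes at least 4-fold lower belonged to that class and 4 to the supplied class. A gene kept through 1 table only had to differ to some degree, and 476 near-absent genes were kept through control and 134 through knockdown alone. Among genes reaching 5 RPKM in both 6 hpf tables, 177 of 712 near-absent genes (24.9%) were lower and 36 higher, and 110 of 6167 supplied genes (1.78%) were lower and 596 higher. As a share of the RPKM sum, the near-absent class made up 4.44% in knockdown and 8.31% in control embryos, and the supplied class 87.6% and 82.1%. The 2 hpf tables come from other libraries, in which few genes differed: 0.649% of 8786 genes were higher and 0.956% lower in knockdown at 2 hpf.

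**Figure D1:**
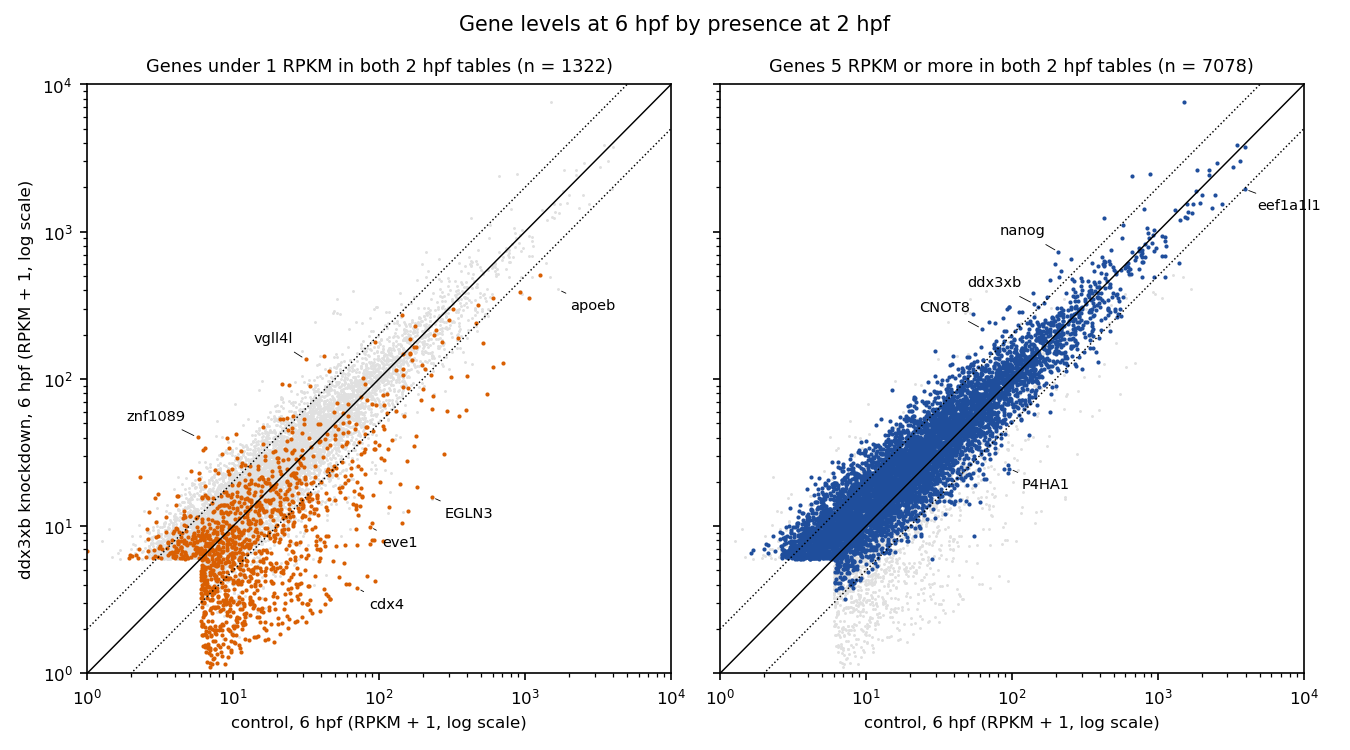
Level of each compared gene at 6 hpf in knockdown embryos (vertical axis) and control embryos (horizontal axis), as RPKM + 1 on log axes; grey points are all 9861 genes, the solid line marks equality and the dotted lines 2-fold. Of the 1322 genes under 1 RPKM in both 2 hpf tables (orange, left), 532 lie below the lower dotted line, against 121 of the 7078 genes at 5 RPKM or more in both (blue, right).

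The split followed the early level in steps. Below a mean of 0.1 RPKM at 2 hpf, 297 of 630 genes (47.1%) were lower in knockdown embryos, and between 0.1 and 1 RPKM 249 of 761 (32.7%) were. From 1 to 5 RPKM the share was 16.4% of 1145 genes. It was 3.07% of 3034 genes from 5 to 20 RPKM, 1.125% of 3466 genes from 20 to 100 RPKM and 0.606% of 825 genes at 100 RPKM and over. The median log2 ratio changed sign between 1 to 5 RPKM and 5 to 20 RPKM, at -0.88, -0.46, -0.31, 0.26, 0.41 and 0.31 in order of early level.

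**Figure D2:**
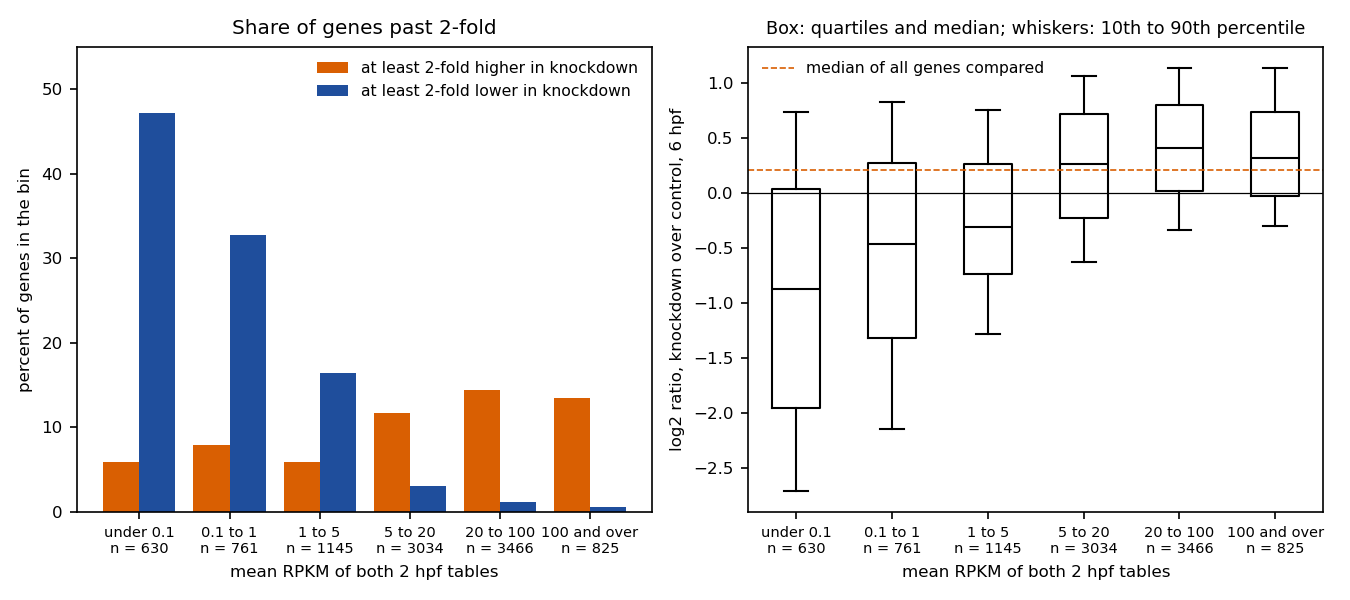
Genes compared at 6 hpf, binned by the mean of both 2 hpf RPKM values (horizontal axis, with the number of genes). Left, percent of each bin at least 2-fold higher (orange) or lower (blue) in knockdown; right, log2 ratio of knockdown over control, with boxes for quartiles and median, whiskers for the 10th to 90th percentile and a dashed line at the median of all genes, 0.21. The percent lower runs down through 47.1, 32.7, 16.4, 3.07, 1.125 and 0.606.

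At the extremes, 79 genes stood at 5 RPKM or more in control and under 1 RPKM in knockdown embryos, and 10 genes the other way round. Of the 79, 75 were under 1 RPKM in both 2 hpf tables. They include mespaa, a segmentation transcription factor with 0.626 RPKM in knockdown and 18.1 RPKM in control, apoa1a, which codes for the main protein of high-density lipoprotein (0.725 RPKM in knockdown and 16.2 RPKM in control), and the forkhead gene FOXC1 (0.701 RPKM in knockdown and 11.02 RPKM in control). Also among them was TBXT (ENSDARG00000039806), a Brachyury-type T-box gene of the mesoderm, with 0.179 RPKM in knockdown and 6.72 RPKM in control. The 10 genes of the opposite kind were all weak, the highest at 8.63 RPKM in knockdown embryos (zgc:171717).

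The split was also viewed within gene names. The copies were drawn from the near-absent and supplied classes above, so this view is not separate support. Zebrafish carry many duplicated genes, and 37 names had one copy at 5 RPKM or more in both 2 hpf tables and another under 1 RPKM in both. The copy absent early had the lower ratio in 31 of the 37 names. Among these late copies 22 were lower and 1 was higher in knockdown embryos, and among the supplied copies 3 were lower and 7 higher. Many late copies passed the floor through control alone, such as LMO7 with 0.593 RPKM in knockdown and 7.49 RPKM in control. Such copies had to differ to some degree, and the order among copies reaching 5 RPKM in both 6 hpf tables was not computed. The medians were -1.24 for late and 0.40 for supplied copies. Citrate carriers of the mitochondrion are one example: the late copy SLC25A1 (ENSDARG00000076381) had 6.002 RPKM in knockdown embryos, against 38.7 RPKM in control, whereas the supplied slc25a1a had 52.5 RPKM in knockdown embryos, against 22.5 RPKM in control. The tetraspanin gene CD82 did the same, with 7.13 RPKM in knockdown embryos, against 38.6 RPKM in control for the late copy and 20.5 RPKM in knockdown embryos, against 9.02 RPKM in control for the supplied one. In the SoxB1 pair the supplied sox19b, a maternal factor of genome activation, had 63.5 RPKM in knockdown embryos, against 31.97 RPKM in control (log2 ratio 0.97), and its late partner sox19a had 163 RPKM in knockdown embryos, against 179 RPKM in control (log2 ratio -0.13). The 6 names with the opposite order were rasgef1b, chchd3, zfp36l1, snai1, p4ha1 and bin2. With the names chosen again at a floor of 10 RPKM the late copy was the lower in 17 of 20 names, and in 85 of 101 at a floor of 1 RPKM. Near-identical copies can share reads, which the sources used here do not describe.

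**Figure D3:**
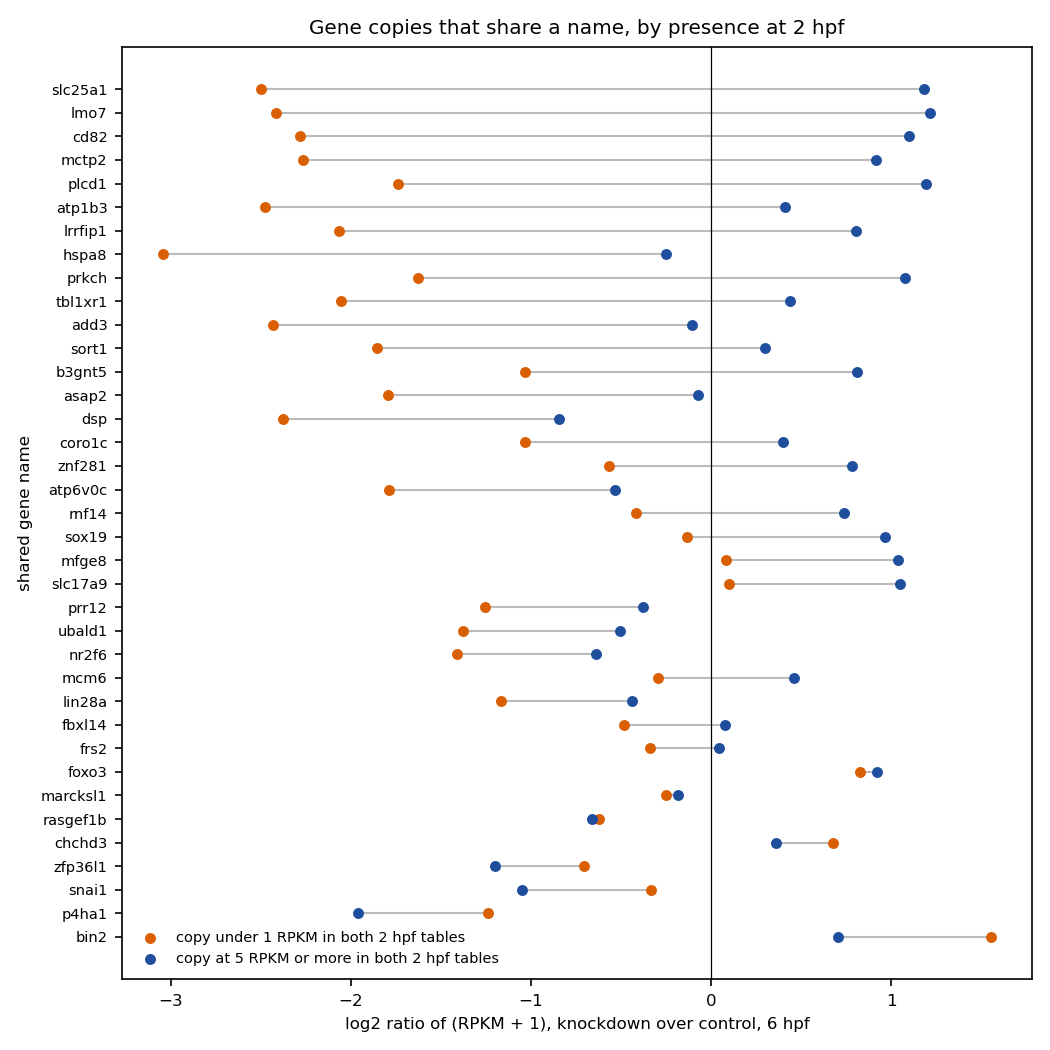
The 37 gene names with a copy at 5 RPKM or more in both 2 hpf tables (blue) and a copy under 1 RPKM in both (orange), each placed by its log2 ratio of knockdown over control at 6 hpf. Orange lies left of blue in 31 names.

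Transcripts of the oocyte stood on the higher side. Of 40 known maternal transcripts 11 were higher and none was lower, against 11.5% and 8.83% of all genes and 13.3% and 1.71% of the supplied class. Their median log2 ratio was 0.46 (0.28 after rescaling), against 0.34 (0.16) in that class, and 7 of the 40 lay below 0. As a share of the RPKM sum the list made up 1.19% in knockdown and 1.24% in control embryos. The genes named next are among its higher members. GDF9, a growth factor of the oocyte, had 12.8 RPKM in knockdown embryos, against 2.54 RPKM in control. Genes of meiotic arrest and its release belonged here, with the kinase gene MOS at 5.85 RPKM in knockdown and 1.77 RPKM in control embryos and WEE2, which codes for an oocyte form of the Wee1 kinase, at 82.1 RPKM in knockdown and 28.3 RPKM in control embryos. Storage and tail-length factors did too: CPEB1, a regulator of cytoplasmic polyadenylation, stood at 16.5 RPKM in knockdown and 7.13 RPKM in control embryos, ZAR1, an RNA-binding protein of the egg-to-embryo transition, at 22.3 RPKM in knockdown and 9.401 RPKM in control embryos, and PABPC1L, an embryonic poly(A)-binding protein, at 41.2 RPKM in knockdown and 14.1 RPKM in control embryos. Before rescaling, the wider list for deadenylation, decapping and mRNA storage did not have a larger share of higher genes than the 11.5% of all genes. In it 7 of 70 genes were higher and 2 lower (median 0.35). After rescaling 6 were higher, a larger share than the 7.17% of all genes, and 4 lower. Its higher members included the deadenylase gene CNOT8 at 218 RPKM in knockdown and 61.6 RPKM in control embryos. The translation repressor LSM14B was another, at 80.6 RPKM in knockdown and 28.6 RPKM in control embryos. YBX1, an abundant packaging protein of maternal mRNA and the most abundant member of both lists, went the other way in value. It had 1455 RPKM in knockdown embryos, against 2343 RPKM in control, short of 2-fold. Primordial germ cell genes, which are inherited with the germ plasm, had 4 of 19 members higher, none lower and a median of 0.52; after rescaling 2 were higher and the median was 0.34. The germ plasm organizer buc had 48.2 RPKM in knockdown embryos, against 14.97 RPKM in control, the piRNA factor TDRD1 5.97 RPKM in knockdown embryos, against 2.16 RPKM in control, and the germ cell helicase DDX4 143 RPKM in knockdown embryos, against 107 RPKM in control. Whether a maternal RNA was kept longer, made anew or changed in tail length cannot be told apart in these tables of poly(A) RNA.

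The activators of the zygotic genome differed from one another. nanog, a homeobox factor, was among the most abundant of all higher genes, with 728 RPKM in knockdown embryos, against 208 RPKM in control (log2 ratio 1.81). EOMES, a maternal T-box factor, had 39.4 RPKM in knockdown embryos, against 14.7 RPKM in control, while pou5f3 had 675 RPKM in knockdown embryos, against 707 RPKM in control and the Nodal effector foxh1 had 90.7 RPKM in knockdown embryos, against 87.1 RPKM in control, both within 2-fold. Other abundant higher genes were the makorin gene mkrn4 (603 RPKM in knockdown and 197 RPKM in control), the arginine methyltransferase gene PRMT1 (467 RPKM in knockdown and 182 RPKM in control), the early cyclin gene CCNA1 (380.1 RPKM in knockdown and 138 RPKM in control), rbm7 of nuclear RNA turnover (307 RPKM in knockdown and 149 RPKM in control) and the zinc finger gene blf (309 RPKM in knockdown and 95.2 RPKM in control). A pair of genes named after one genomic clone, with no assigned function, rose more: ENSDARG00000040141 had 392 RPKM in knockdown embryos, against 65.7 RPKM in control and ENSDARG00000095745 had 349.6 RPKM in knockdown embryos, against 50.4 RPKM in control. Both were higher at 2 hpf already, at 7.03 and 7.70 RPKM in knockdown embryos, against 1.41 and 1.05 RPKM in control embryos.

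Genes of the posterior body and its Wnt signal were among the lowest. Wnt ligands act through Frizzled receptors and TCF/LEF factors to hold posterior mesoderm, and 8 of 12 compared members were lower and none higher, with a median of -1.66 against 0.21 for all genes. Of the 12, 7 were in the near-absent class (40.2% lower, median -0.66), and with no floor the list median was -0.65. The ligand gene WNT8A itself had 8.43 RPKM in knockdown embryos, against 5.97 RPKM in control, within 2-fold and above control in value. Receptors split, since FZD10 had 0.582 RPKM in knockdown embryos, against 5.78 RPKM in control and 1 FZD7 copy had 39.5 RPKM in knockdown embryos, against 137 RPKM in control, while the second FZD7 copy had 126 RPKM in knockdown embryos, against 130.4 RPKM in control. The effector LEF1 stayed within 2-fold at 13.2 RPKM in knockdown and 17.97 RPKM in control embryos, whereas TCF7 had 1.09 RPKM in knockdown embryos, against 5.08 RPKM in control. Among targets and feedback genes, the caudal homeobox gene cdx4 had 2.80 RPKM in knockdown embryos, against 69.9 RPKM in control (log2 ratio -4.22), SP5 had 2.52 RPKM in knockdown embryos, against 18.2 RPKM in control, and the Dishevelled inhibitor NKD1 had 1.02 RPKM in knockdown embryos, against 8.30 RPKM in control.

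Presomitic mesoderm, the tissue that later forms somites, showed the same pattern with 9 of 13 members lower, none higher and a median of -2.46. msgn1 and tbx16 act together in this tissue, yet msgn1 had 4.64 RPKM in knockdown embryos, against 56.4 RPKM in control and tbx16 had 149 RPKM in knockdown embryos, against 163 RPKM in control, within 2-fold. The tbx16 relative tbx16l was lower, with 1.23 RPKM in knockdown embryos, against 14.4 RPKM in control. The segment formation genes mespab and ripply1 fell as well, with mespab at 1.37 RPKM in knockdown and 19.4 RPKM in control embryos and ripply1 at 0.491 RPKM in knockdown and 5.77 RPKM in control embryos. ALDH1A2, which makes retinoic acid in this mesoderm, had 1.24 RPKM in knockdown embryos, against 30.6 RPKM in control, and the retinoic acid degrading enzyme CYP26A1 had 41.2 RPKM in knockdown embryos, against 42.8 RPKM in control.

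Notch signalling and its Her repressors form the segmentation clock, and 6 of 12 compared members were lower and 1 higher. The median was -1.53, but -0.80 with a floor of 1 RPKM and -0.97 with a pseudocount of 5 RPKM. This list shares 4 members with that of presomitic mesoderm, and 9 of its 12 compared members were in the near-absent class (40.2% lower). Clock genes with the deepest falls were her1 with 1.98 RPKM in knockdown and 41.6 RPKM in control and her7 with 2.34 RPKM in knockdown and 43.4 RPKM in control. The ligand genes dlc and DLL1 fell as well, to 1.95 and 3.57 RPKM in knockdown embryos, against 31.5 and 35.5 RPKM in control embryos. DLD, another ligand gene, did not, with 69.03 RPKM in knockdown embryos, against 41.8 RPKM in control. her5, a Her gene of endoderm and midbrain, was the higher member, with 39.4 RPKM in knockdown embryos, against 7.41 RPKM in control, and her11 had 11.5 RPKM in knockdown embryos, against 7.99 RPKM in control.

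**Figure D4:**
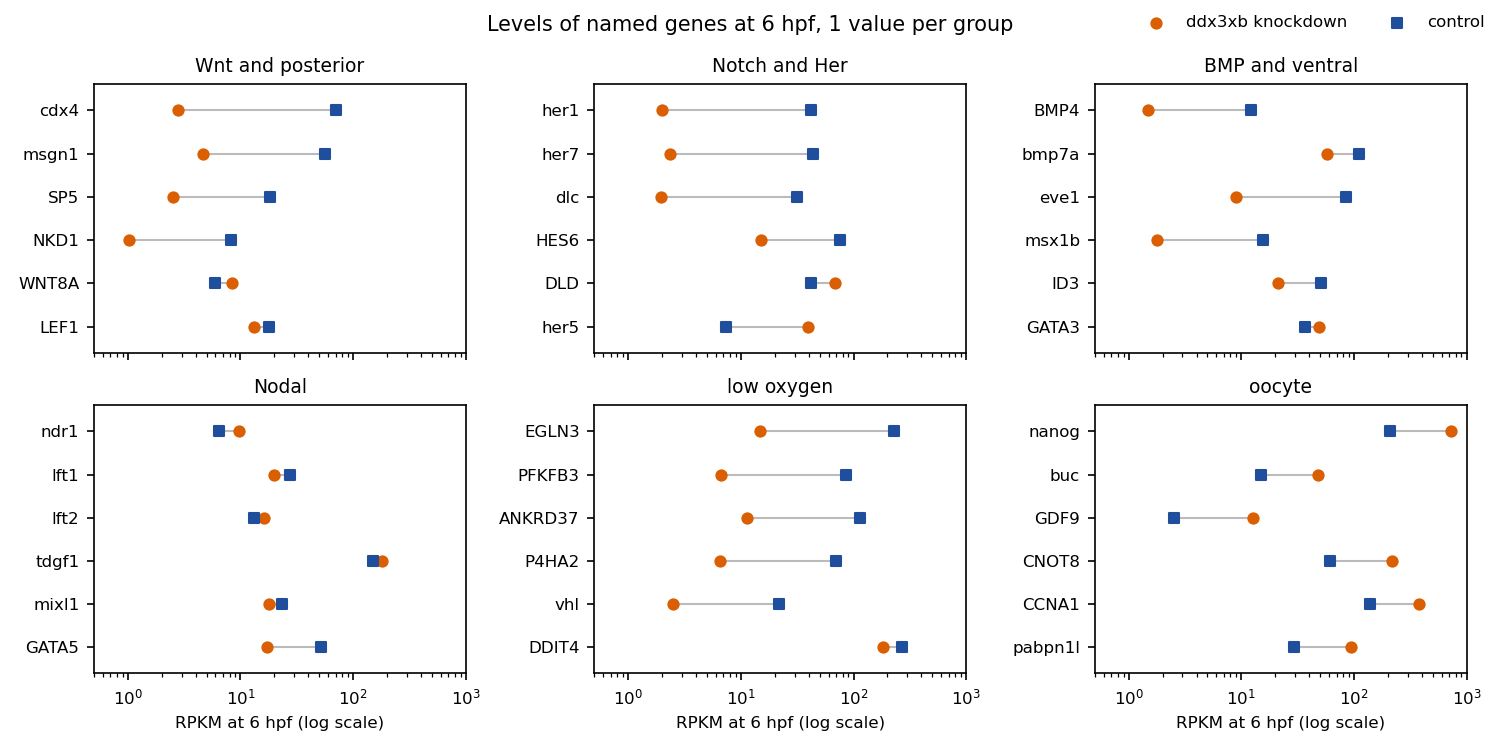
RPKM at 6 hpf on a log axis for 36 named genes of 6 groups, 1 value per group of embryos; orange circles are ddx3xb knockdown and blue squares control. cdx4, her1 and EGLN3 lie more than 10-fold to the left in knockdown, and WNT8A, ndr1 and DLD lie slightly to the right. The oocyte genes chosen for display all lie to the right. Of the 40 known maternal transcripts 7 had a log2 ratio below 0, among them YBX1, which is not shown.

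BMP signalling sets ventral fates and is restrained by dorsal antagonists. Of 25 members 9 were lower and 2 higher, with a median of -0.76. The near-absent class held 15 of the 25, and over that whole class 40.2% were lower, with a median of -0.66. Ligands were unequal: BMP4 had 1.47 RPKM in knockdown embryos, against 12.1 RPKM in control, while bmp7a with 57.8 RPKM in knockdown and 112 RPKM in control and BMP2 with 36.4 RPKM in knockdown and 59.02 RPKM in control stayed within 2-fold. The antagonist chordin, chrd, stood at 41.2 RPKM in knockdown and 78.9 RPKM in control embryos, within 2-fold, and the inhibitory SMAD6 was lower at 1.05 RPKM in knockdown and 7.20 RPKM in control embryos. Ventral targets differed. eve1, a ventral and posterior homeobox gene, had 8.93 RPKM in knockdown embryos, against 85.5 RPKM in control, msx1b had 1.79 RPKM in knockdown embryos, against 15.7 RPKM in control, and the direct target ID3 had 21.2 RPKM in knockdown embryos, against 50.9 RPKM in control. ID1, another direct target, had 106 RPKM in knockdown embryos, against 85.6 RPKM in control, and the ventral factor GATA3 had 48.8 RPKM in knockdown embryos, against 37.1 RPKM in control, both within 2-fold and above control in value. klf2a was higher, with 29.1 RPKM in knockdown embryos, against 7.27 RPKM in control.

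Nodal signals induce mesoderm and endoderm and are limited by Lefty proteins. Their list was mixed, with 6 of 20 members lower, 2 higher and a median of -0.24. Of the 20, 16 were in the near-absent class, of which 40.2% were lower. The ligand ndr1 had 9.69 RPKM in knockdown embryos, against 6.50 RPKM in control, the co-receptor tdgf1 182 RPKM in knockdown embryos, against 149 RPKM in control, and the inhibitors lft1 and lft2 19.7 and 16.2 RPKM in knockdown embryos, against 27.4 and 13.2 RPKM in control embryos. None of these passed 2-fold. Endoderm and axial targets were among the lower members, with GATA5 at 17.3 RPKM in knockdown and 52.1 RPKM in control embryos, FOXA2 at 3.62 RPKM in knockdown and 12.2 RPKM in control embryos and foxa3 at 46.7 RPKM in knockdown and 105 RPKM in control embryos. The mesendoderm gene mixl1 stayed close, at 17.9 RPKM in knockdown and 23.2 RPKM in control embryos. A transcription cofactor gene, vgll4l, was higher, with 135 RPKM in knockdown embryos, against 30.4 RPKM in control.

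Of the dorsal organizer and axial mesoderm 5 of 12 members were lower and 1 higher (median -0.58). Near-absent genes, of which 40.2% were lower, made up 8 of the 12. The earliest organizer gene, dharma, a target of maternal beta-catenin, was the higher one, with 8.62 RPKM in knockdown embryos, against 1.59 RPKM in control. The notochord gene noto had 101 RPKM in knockdown embryos, against 77.1 RPKM in control. Both secreted Wnt antagonist genes named here were lower: dkk1b had 9.32 RPKM in knockdown embryos, against 24.8 RPKM in control and frzb had 0.848 RPKM in knockdown embryos, against 6.63 RPKM in control. lhx1a, a LIM homeobox gene of the organizer, had 8.21 RPKM in knockdown embryos, against 30.3 RPKM in control.

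Of 14 FGF ligands, effectors and feedback inhibitors 6 were lower and none higher, with a median of -0.64. The near-absent class, with 40.2% lower, held 7 of the 14. FGF8 had 18.9 RPKM in knockdown embryos, against 22.5 RPKM in control, and its transcriptional effectors ETV4 and etv5b had 62.5 and 106 RPKM in knockdown embryos, against 78.4 and 119.8 RPKM in control embryos. The phosphatase gene DUSP6, which switches off ERK, had 32.3 RPKM in knockdown embryos, against 79.5 RPKM in control. DUSP4 had 21.4 RPKM in knockdown embryos, against 48.01 RPKM in control and SPRED1, another inhibitor of the pathway, 1.79 RPKM in knockdown embryos, against 6.05 RPKM in control.

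The neurectoderm list had 4 of 13 members lower, 1 higher and a median of -0.58, with 7 of the 13 in the near-absent class (40.2% lower). SOX2, a neural and pluripotency factor, had 2.18 RPKM in knockdown embryos, against 44.8 RPKM in control, but its relatives SOX3 with 145 RPKM in knockdown and 231 RPKM in control and sox19a with 163 RPKM in knockdown and 179 RPKM in control were within 2-fold. IRX1 had 2.19 RPKM in knockdown embryos, against 15.6 RPKM in control. The anterior homeobox gene otx2a, chosen after its value was seen, had 3.72 RPKM in knockdown embryos, against 27.9 RPKM in control.

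Adhesion and cell movement genes had 12 of 38 members lower and 1 higher (median -0.47), with 18 of the 38 in the near-absent class (40.2% lower). The cadherin genes cdh6 and CDH2 were among the lower ones, with cdh6 at 2.74 RPKM in knockdown and 41.2 RPKM in control embryos and CDH2, N-cadherin, at 13.2 RPKM in knockdown and 49.8 RPKM in control embryos. The planar polarity genes VANGL2 and PTK7 were nearly level, at 103 and 102 RPKM in knockdown embryos, against 96.7 and 91.97 RPKM in control embryos. PTGS2 (ENSDARG00000010276), a prostaglandin synthase gene, was lower at 4.65 RPKM in knockdown and 16.9 RPKM in control embryos, and snai2, a zinc finger gene of cell migration, was higher at 93.2 RPKM in knockdown and 45.6 RPKM in control embryos.

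The enveloping layer is the first epithelium to differentiate, and 16 of 26 of its genes were lower and 1 was higher, with a median of -1.36. Of the 26, 19 were in the near-absent class (40.2% lower, median -0.66). All 11 compared keratin genes were lower (median -2.45), and the keratin list made up 0.327% of the RPKM sum in knockdown and 1.08% in control embryos. It shares 8 members with the enveloping layer list, and 10 of its 11 compared members were in the near-absent class. Keratins are close relatives that can share reads, so their order is uncertain. The most abundant was krt18a.1, with 506 RPKM in knockdown embryos, against 1268 RPKM in control, and the deepest fall was in krt99, with 11.7 RPKM in knockdown embryos, against 157 RPKM in control. Genes outside the keratin family fell too, as with the annexin gene ANXA1 (29.9 RPKM in knockdown and 279 RPKM in control), the desmosomal plakophilin gene pkp3a (6.30 RPKM in knockdown and 41.5 RPKM in control) and the late DSP copy for desmoplakin (7.57 RPKM in knockdown and 43.6 RPKM in control). Some regulators and surface genes of the same layer were not lower: klf17 had 96.2 RPKM in knockdown embryos, against 82.5 RPKM in control, grhl3 121 RPKM in knockdown embryos, against 64.2 RPKM in control, ovol1a 44.96 RPKM in knockdown embryos, against 25.3 RPKM in control, and epcam 535 RPKM in knockdown embryos, against 517 RPKM in control. The claudin gene cldn7b was higher, with 283 RPKM in knockdown embryos, against 111 RPKM in control. Fewer cells of a type and less RNA per cell cannot be told apart in whole embryos.

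The yolk syncytial layer, which takes up yolk and exports lipoproteins, had 11 of 13 genes lower, none higher and a median of -1.96. The near-absent class (40.2% lower, median -0.66) held 11 of the 13, and with no floor the list median was -0.39. The apolipoprotein genes apoeb, apoc1 and apoc2 were among the lower ones, with apoeb at 405 RPKM in knockdown and 1678 RPKM in control embryos, apoc1 at 60.4 RPKM in knockdown and 394 RPKM in control embryos and apoc2 at 7.04 RPKM in knockdown and 91.5 RPKM in control embryos. The most abundant member of the list in knockdown embryos, at 1265 RPKM, stayed within 2-fold. The lipid transfer gene MTTP had 16.3 RPKM in knockdown embryos, against 66.4 RPKM in control and the phospholipase-like PLA2G12B 1.64 RPKM in knockdown embryos, against 38.5 RPKM in control. The liver-type nuclear receptor gene HNF4A had 21.1 RPKM in knockdown embryos, against 62.8 RPKM in control. The homeobox genes that specify the layer differed, since mxtx1 was lower at 43.1 RPKM in knockdown and 90.3 RPKM in control embryos and mxtx2 stood at 48.6 RPKM in knockdown and 29.5 RPKM in control embryos. fetub, a secreted protease inhibitor gene, also belonged to the largest falls, with 9.52 RPKM in knockdown embryos, against 144 RPKM in control.

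Transporter genes moved both ways. Among 83 solute carriers outside the mitochondrial family, 24 were lower and 12 higher, a share of lower genes above the 8.83% of all genes, yet the median was 0.27, above the 0.21 of all genes. After rescaling 25 were lower and 7 higher. Among the lower ones were genes of amino acid transport: SLC7A8 had 103 RPKM in knockdown embryos, against 397 RPKM in control, its heavy-chain partner SLC3A2 had 82.04 RPKM in knockdown embryos, against 281 RPKM in control, and SLC43A2 had 12.7 RPKM in knockdown embryos, against 68.7 RPKM in control. The zinc transporter gene SLC39A5 had 4.76 RPKM in knockdown embryos, against 47.3 RPKM in control. On the higher side stood the lactate exporter gene SLC16A3 with 284 RPKM in knockdown and 117 RPKM in control and the sodium-proton exchanger gene SLC9A7 with 14.3 RPKM in knockdown and 3.96 RPKM in control.

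Genes that respond to low oxygen had 15 of 36 members lower and 2 higher, with a median of -0.36. The oxygen sensors themselves are targets of the hypoxia-inducible factor, and EGLN3 had 14.8 RPKM in knockdown embryos, against 229 RPKM in control while its maternal relative EGLN1 had 28.1 RPKM in knockdown embryos, against 21.9 RPKM in control. The ubiquitin ligase gene vhl, which removes the factor, had 2.48 RPKM in knockdown embryos, against 21.7 RPKM in control, and the factor gene EPAS1 had 1.22 RPKM in knockdown embryos, against 15.7 RPKM in control. The collagen hydroxylase genes P4HA2 and PLOD1 were lower, P4HA2 at 6.51 RPKM in knockdown and 69.3 RPKM in control embryos and PLOD1 at 2.03 RPKM in knockdown and 28.7 RPKM in control embryos. P4HA1 fell although the egg supplied it, with 23.6 RPKM in knockdown embryos, against 94.9 RPKM in control. Other members of the list, such as NDRG1 (ENSDARG00000032849) with 130.5 RPKM in knockdown and 102 RPKM in control and PDK1 with 8.02 RPKM in knockdown and 6.42 RPKM in control, stayed within 2-fold.

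Genes of sugar metabolism differed by isoform. Of 22 glycolytic and gluconeogenic genes 9 were lower and 2 higher (median -0.45). Their list shares 10 members with the low-oxygen list. The gluconeogenic genes pck2 and fbp1b fell, with pck2 at 3.07 RPKM in knockdown and 58.5 RPKM in control embryos and fbp1b at 18.3 RPKM in knockdown and 139 RPKM in control embryos. The hexokinase-like HKDC1 had 2.48 RPKM in knockdown embryos, against 42.2 RPKM in control, and the aldolase genes ALDOA and ALDOC stood at 129 and 4.96 RPKM in knockdown embryos, against 387 and 27.5 RPKM in control embryos. Of the enolases, ENO1 had 7.23 RPKM in knockdown embryos, against 39.2 RPKM in control and ENO3 had 41.6 RPKM in knockdown embryos, against 22.8 RPKM in control. GAPDHS had 3.67 RPKM in knockdown embryos, against 42.3 RPKM in control and GAPDH 122 RPKM in knockdown embryos, against 74.3 RPKM in control.

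Inducible heat shock genes had 12 of 26 members lower and 1 higher, with a median of -0.88. HSP90AA1, the inducible cytosolic chaperone, had 14.3 RPKM in knockdown embryos, against 230.3 RPKM in control, the constitutive HSP90AB1 490.5 RPKM in knockdown embryos, against 933 RPKM in control, and HSP90B1 of the endoplasmic reticulum was higher at 129 RPKM in knockdown and 53.9 RPKM in control embryos. The collagen chaperone SERPINH1 (ENSDARG00000019949) had 6.93 RPKM in knockdown embryos, against 106 RPKM in control. For HSPA8 the 2 copies with this symbol lay far apart, at 0.793 RPKM in knockdown and 13.8 RPKM in control embryos for the weak one and 1199 and 1425 RPKM for the abundant one, and hsp70-type genes can share reads. The small heat shock gene HSPB1 had 492 RPKM in knockdown embryos, against 1489 RPKM in control, and the heat shock factor hsf1 had 24.3 RPKM in knockdown embryos, against 29.1 RPKM in control. Targets of p53 and FoxO had no member higher and 4 of 26 lower (median -0.03): the p53 targets cdkn1a and mdm2 were nearly level, at 12.8 and 72.00 RPKM in knockdown embryos, against 13.3 and 72.5 RPKM in control embryos.

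The basic machinery of the cell differed by machine. Cytosolic ribosomal protein genes were below control in value in 70 of 71 members, with 6 lower (20 after rescaling) and a median of -0.68. They held 3.26% of the RPKM sum in knockdown and 5.09% in control embryos. At 2 hpf the median log2 ratio of the 71 was 0.40, against -0.14 over all 9861 genes. RPS6 had 265 RPKM in knockdown embryos, against 555 RPKM in control and RPLP0 of the ribosomal stalk 189 RPKM in knockdown embryos, against 397 RPKM in control. The elongation factor gene eef1a1l1 was the most abundant lower gene, with 1948 RPKM in knockdown embryos, against 3941 RPKM in control. Initiation factors went both ways, EIF4E at 11.96 RPKM in knockdown and 30.1 RPKM in control embryos and EIF4G3 (ENSDARG00000077215) at 31.7 RPKM in knockdown and 13.9 RPKM in control embryos, and the list of 66 had 3 higher, 4 lower and a median of 0.03, against 0 higher, 5 lower and a median of -0.15 after rescaling. The 13 genes of the mitochondrial genome lay above control in value in 12 cases, with none past 2-fold and a median of 0.44, and MT-ND5 had 483 RPKM in knockdown embryos, against 296 RPKM in control. Nuclear respiratory chain genes had 5 of 81 higher, 1 lower and a median of -0.15, and 1 higher and 3 lower after rescaling; both shares lie below those of all genes. The proteasome (2 of 41 higher, none lower), the spliceosome (1 of 59 higher, none lower), the CCT chaperonin (0 of 8 in either direction) and mitochondrial ribosomal proteins (1 of 60 each way) had smaller shares past 2-fold than all genes.

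**Figure D5:**
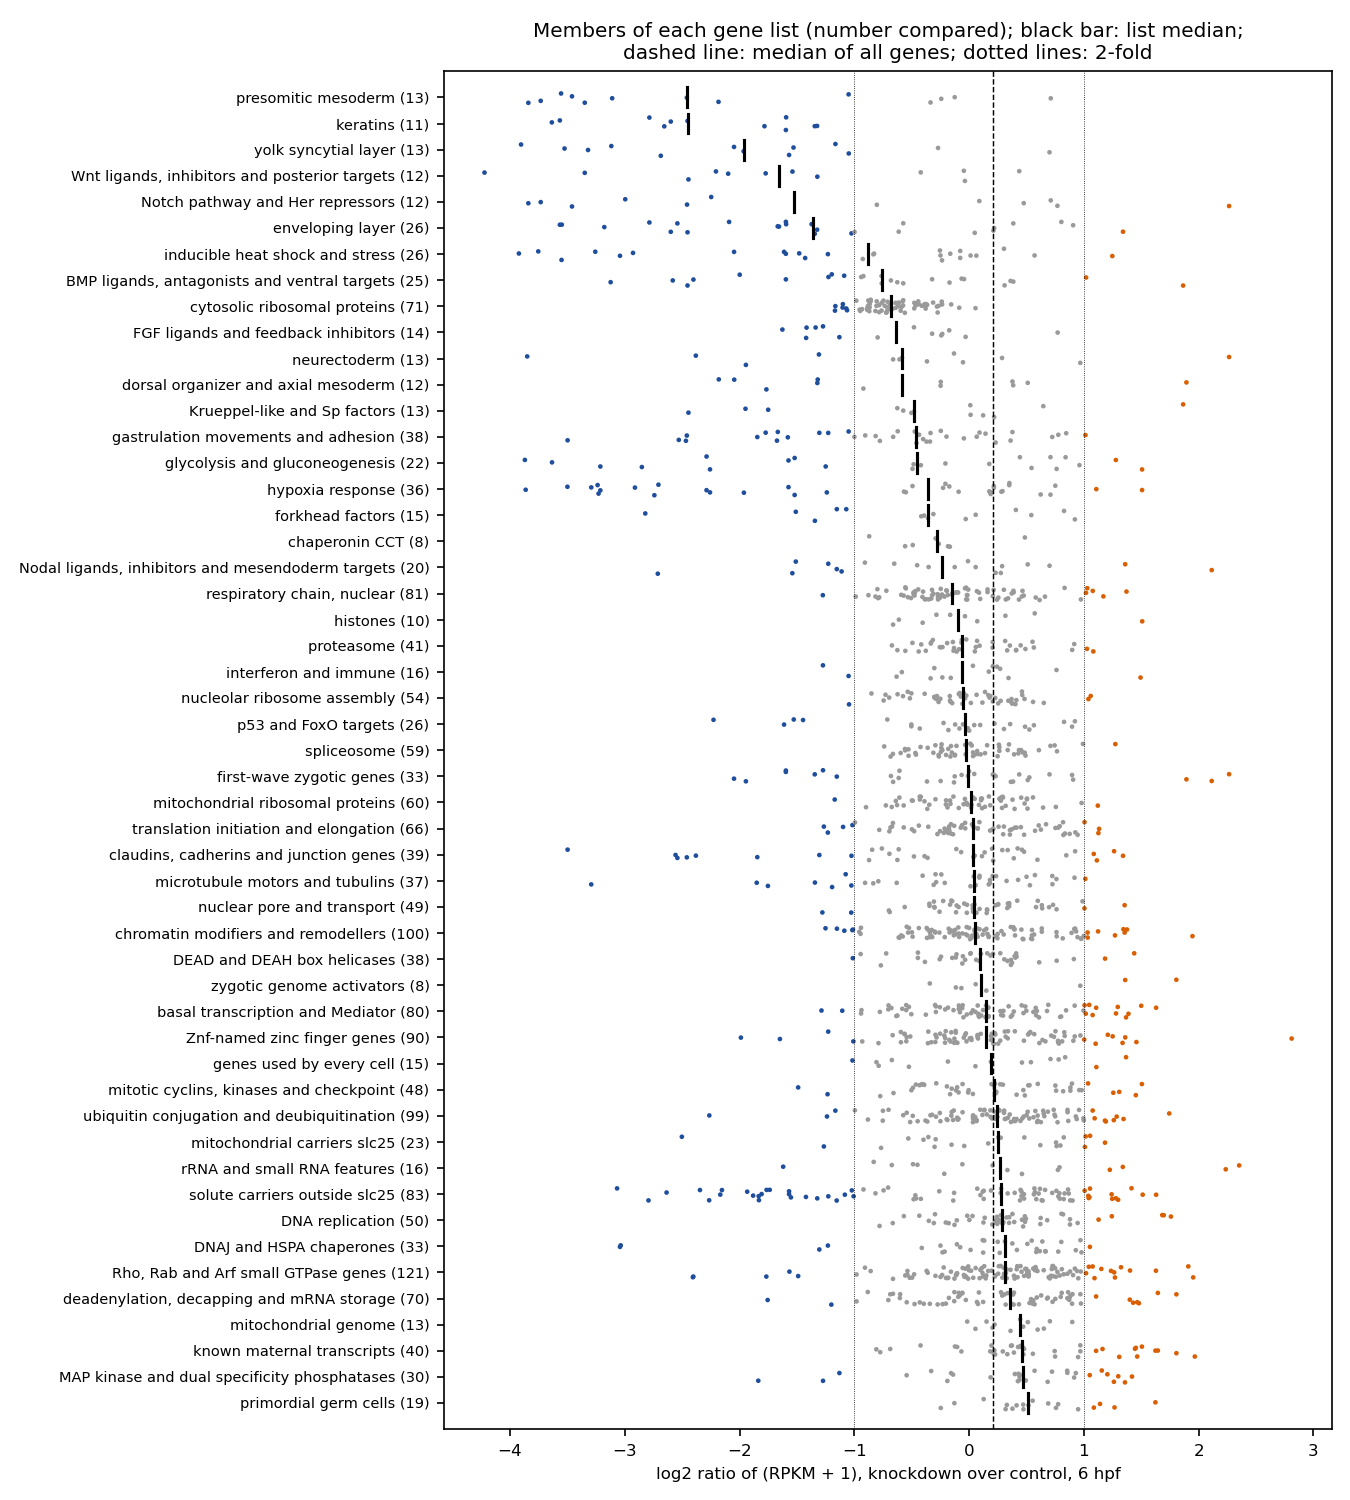
Log2 ratio of knockdown over control at 6 hpf for the members of each list with 8 or more genes compared (number in brackets), in order of the list median (black bar); orange and blue points are at least 2-fold higher and lower, the dashed line is the median of all genes, 0.21, and the dotted lines mark 2-fold. Presomitic mesoderm (-2.46) and keratins (-2.45) stand at the top of the plot and primordial germ cells (0.52) at its foot.

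Counts in nuclear machinery and signalling depended on the scaling. Basal transcription and Mediator genes had 11 of 80 members higher, near the 11.5% of all genes, and 2 lower, with a median of 0.15, and after rescaling 6 higher, 4 lower and a median of -0.04. TBP, which binds the TATA element of promoters, had 117 RPKM in knockdown embryos, against 44.9 RPKM in control. The general factor genes GTF2E1 and GTF2E2 rose to 64.6 and 78.7 RPKM in knockdown embryos, against 20.2 and 29.5 RPKM in control embryos, and MED1 of the Mediator fell, with 6.04 RPKM in knockdown embryos, against 16.2 RPKM in control. DNA replication genes had 5 of 50 higher, a smaller share than that of all genes, and none lower (median 0.29). After rescaling 4 of the 50 were higher, a larger share than the 7.17% of all genes, and none was lower. GMNN, the licensing inhibitor geminin, was at 298 RPKM in knockdown and 91.4 RPKM in control embryos. The origin factor ORC6 was at 124 RPKM in knockdown and 38.1 RPKM in control embryos and PCNA level at 612 RPKM in knockdown and 619 RPKM in control embryos. Among 48 mitotic genes 5 were higher and 2 lower (median 0.22), smaller shares than the 11.5% and 8.83% of all genes. After rescaling 4 of the 48 were higher, a larger share than the 7.17% of all genes, and 2 were lower. CDK1 had 21.8 RPKM in knockdown embryos, against 52.6 RPKM in control and BUB3 of the spindle checkpoint 18.2 RPKM in knockdown embryos, against 52.8 RPKM in control. Chromatin genes had 8 of 100 higher and 5 lower (median 0.05), but 5 higher and 8 lower after rescaling (median -0.13). Under either scaling these shares were smaller than those of all genes. The deacetylase gene HDAC11 had 22.1 RPKM in knockdown embryos, against 4.98 RPKM in control. The list of MAP kinase genes and dual specificity phosphatases had 7 of 30 members higher and 3 lower (median 0.47), and 5 higher after rescaling; it shares 2 members with the FGF list. MAP3K7, a kinase downstream of TGF-beta and Wnt receptors, was among the 7, with 50.2 RPKM in knockdown and 21.97 RPKM in control. Among 121 genes of small GTPases and their partners 13 were higher and 5 lower (median 0.31), and 8 each way after rescaling. These shares too were smaller than those of all genes. The lower ones included rab25a, an epithelial trafficking gene, at 12.1 RPKM in knockdown and 68.7 RPKM in control embryos.

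A minority of genes went against their class. Of the 89 near-absent genes that were higher, 26 have a symbol. znf1089, a zinc finger gene, had 39.1 RPKM in knockdown embryos, against 4.71 RPKM in control, the largest ratio of the genes with a symbol (2.81). tsc22d3, a glucocorticoid-induced gene in mammals, had 32.02 RPKM in knockdown embryos, against 5.203 RPKM in control. Of the 121 supplied genes that were lower, CITED2, a competitor of hypoxia-inducible factor for its coactivator, had 21.9 RPKM in knockdown embryos, against 92.7 RPKM in control. TCF7L1, a repressing TCF of the Wnt pathway, had 19.9 RPKM in knockdown embryos, against 63.5 RPKM in control. ppp1r15a, a stress-induced phosphatase subunit gene, had 59.03 RPKM in knockdown embryos, against 180.5 RPKM in control, and HSPE1, the mitochondrial co-chaperonin, 13.6 RPKM in knockdown embryos, against 59.3 RPKM in control. The ID3, ALDOA and P4HA1 transcripts described above belong to this class too.

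Lower genes lay beside other lower genes at more than the overall share. The gene order of the RefSeq annotation (assembly GRCz12tu, which is not the build of the files) placed 6088 of the 7783 genes with a symbol and gave 2086 adjacent pairs of compared genes. Of the neighbours of lower genes 18.8% were lower, against 8.68% of the neighbours of all placed genes, and 34 pairs were lower in both members. Of the neighbours of higher genes 10.8% were higher, against 10.2% of the neighbours of all placed genes, with 23 pairs. Many runs of lower genes held tandem relatives. One joined krt92, cyt1l, cyt1, krt17 and krt91, and another krt5, krt8 and krt18a.1. Another run held apoa4b.2, apoeb and apoc1, and the clock genes her1 and her7 also lie side by side. Further lower pairs of relatives were HK1 with HKDC1, TUBA1A with tuba1c and dnase1l4.1 with dnase1l4.2. The share without tandem relatives was not computed, so how far the 18.8% rests on gene families cannot be told.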

How the data were processed

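Per the labels' protocols, TRIzol-extracted RNA was enriched for poly(A) on oligo(dT) beads, and libraries were stranded. Tools named in the submitters' processing notes are cutadapt 1.13, Trimmomatic 0.36, HISAT2 2.0.5 and SAMtools 1.9, with build Zv9. Which counter, strand setting and annotation were used is not given in the sources used here. RPKM tables of 33737 Ensembl identifiers, with 1 value per group, are what the authors deposited. Samples were grouped by title. Embryos at 4 hpf were not analysed here. Ratios used a pseudocount of 1 RPKM, a floor of 5 RPKM in either 6 hpf table and a 2-fold threshold, in Python with pandas 2.3.3; the counting was tested on simulated data. Alternatives were pseudocounts of 0.1 and 5 RPKM, floors of 1 and 10 RPKM or none, rescaling by the median ratio (genes at 5 RPKM or more in both tables), quantile normalization and equal RPKM sums. Symbols, some in upper case as the table gives them, matched 21939 identifiers; 524 are shared by several. The members and lists were chosen with earlier results of these data known. By rule, the genes named were ddx3xb and ddx3xa, the 15 largest and 15 smallest ratios with a symbol, the 10 most abundant higher and lower genes, all compared members of lists up to 12 and the 6 most changed of longer ones, and members needed to set ligand, inhibitor and target side by side; further examples and not every eligible gene were named after their values were seen. Some genes that the rule for named genes covers are not reported here.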

Additional observations from a re-analysis of the deposited data

Results flagged for a closer look

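Genes that were past 2-fold in opposite directions at 2 and 6 hpf numbered 8 of 9861, and those with a symbol are given here. In the same direction at both ages, 21 genes were higher and 16 lower. Whether the ages differ was not tested. NEIL1, a DNA glycosylase gene, had 23.4 RPKM in knockdown embryos, against 10.3 RPKM in control at 6 hpf (log2 ratio 1.11) and 4.07 RPKM in knockdown, against 11.2 RPKM in control embryos at 2 hpf. The kinetochore genes cenpe and knl1 went the other way. cenpe had 7.54 RPKM in knockdown embryos, against 29.3 RPKM in control at 6 hpf (log2 ratio -1.83) and 14.2 and 3.30 RPKM in knockdown and control embryos at 2 hpf. knl1 had 8.47 RPKM in knockdown embryos, against 20.6 RPKM in control at 6 hpf (log2 ratio -1.19) and 8.18 and 3.44 RPKM in knockdown and control embryos at 2 hpf. si:ch211-145c1.1 had 21.8 RPKM in knockdown embryos, against 7.45 RPKM in control at 6 hpf (log2 ratio 1.43) and 12.6 and 27.2 RPKM in the same groups at 2 hpf. zgc:171717 had 8.63 RPKM in knockdown embryos, against 0.418 RPKM in control at 6 hpf (log2 ratio 2.76) and 3.41 and 14.5 RPKM in knockdown and control embryos at 2 hpf.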

How the results depend on the processing

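No paired analysis was possible because each group has 1 value per gene. For the same reason no library could be left out. With a pseudocount of 5 RPKM, 459 genes were higher and 539 lower, 40 of the near-absent genes were higher, and 388 of the supplied genes were higher and 73 lower. A floor of 1 RPKM, or none, gave 157 higher and 895 lower near-absent genes, and a floor of 10 RPKM 56 higher. The median of all genes was 0 with no floor, 0.033 after rescaling by the median ratio and 0.088 after quantile normalization. Rescaling gave 707 higher genes in all and 571 higher and 225 lower supplied genes, and quantile normalization 184 lower supplied genes; the split of all genes was 825 higher and 1029 lower after quantile normalization and 1031 and 916 at equal RPKM sums. All 49 genes followed were past 2-fold at the settings used above, and a new pseudocount or floor cannot turn the sign of a gene's ratio. That none of the 49 changed sign in 389 values is therefore little of a test. Of these values, 4 fell short of 2-fold. The 6 lists of 3 or more compared genes with a median beyond 1 kept its sign in 48 values, but with no floor the medians were -0.10 for Notch, -0.39 for the yolk syncytial layer and -0.65 for Wnt. The late copy was the lower in 17 of 20 names at a floor of 10 RPKM, 85 of 101 at 1 RPKM and 259 of 336 with none. List medians that changed sign under a scaling were all within 0.18 of 0.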

Other observations

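Several of the largest ratios lay outside the gene groups described above. Among the higher genes, CSK, which codes for a kinase that restrains Src, had 6.99 RPKM in knockdown embryos, against 0.268 RPKM in control, and RBM22, a splicing factor gene, had 11.7 RPKM in knockdown embryos, against 1.46 RPKM in control. RBM22 was higher at 2 hpf already, at 3.42 RPKM in knockdown and 0.350 RPKM in control embryos. casp23, a caspase gene, had 20.6 RPKM in knockdown embryos, against 3.20 RPKM in control, and the mRNA export gene chtopb had 26.3 RPKM in knockdown embryos, against 4.85 RPKM in control; both were at 20 RPKM or more in knockdown and control embryos at 2 hpf. The egg coat genes zp3f.1 and zp3f.2 had 42.6 and 12.7 RPKM in knockdown embryos, against 17.3 and 5.81 RPKM in control embryos, and the variant histone gene h2ax had 82.03 RPKM in knockdown embryos, against 28.2 RPKM in control. Among the lower genes, si:ch211-217k17.9 had the smallest ratio of all (-4.46), with 3.26 RPKM in knockdown embryos, against 92.98 RPKM in control, and si:ch211-217k17.8 had 2.22 RPKM in knockdown embryos, against 45.01 RPKM in control. The cathepsin-like gene ctsll had 120.2 RPKM in knockdown embryos, against 599.6 RPKM in control. Tubulin genes were unequal, with TUBA1A at 1.21 RPKM in knockdown and 20.6 RPKM in control embryos and tubb4b at 187 RPKM in knockdown and 162 RPKM in control embryos. Genes with an interferon or immune role had 1 of 16 members higher and 2 lower, beside 11.5% and 8.83% of all genes. Among them were gbp3 at 11.3 RPKM in knockdown and 3.38 RPKM in control embryos and isg15 at 187 RPKM in knockdown and 162 RPKM in control embryos.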
